A study of Mus musculus with 9 samples.

Results

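The 7 genes described here are Mt1 and Mt2, the metallothioneins of mouse liver, and 5 genes of the glucocorticoid response, Sgk1, Fkbp5, Tsc22d3, Nr3c1 and Hsd11b1. They were chosen by name, with earlier results of these data known, and are 7 of 18193 genes measured (18 of 45037 probe sets). Each was read at the probe set whose mean over the 9 arrays was highest. Counts called among them, set beside the shares of all genes, are therefore no independent test. Liver RNA of female C57BL/6J mice was hybridized to Affymetrix mouse arrays, 3 each for control, amoxicillin and tylosin, 1 array per sample. Control mice received no antibiotic, and pulsed antibiotic treatment (PAT) put either amoxicillin (0.167 mg/ml, a daily 25 mg/kg) or tylosin (0.333 mg/ml, a daily 50 mg/kg) into the drinking water in 3 courses, from day 10 to day 15, day 28 to day 31 and day 37 to day 40 of life. All groups ate high-fat chow after the last course, and livers were collected at 22 weeks by the design text or 24 weeks by the sample labels. Littermates shared a cage and a treatment, each treatment held mice of more than 1 litter, and the litter of each array is not given, so p-values measure the spread between these samples only. The values are log2 expression levels, on which a difference of 1 is a doubling.

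Glucocorticoids, in the mouse chiefly corticosterone, act through the glucocorticoid receptor, encoded by Nr3c1, which waits in the cytosol with HSP90 and its partners and on binding hormone enters the nucleus. There it binds DNA at glucocorticoid response elements (GREs) and raises genes such as Tsc22d3 (GILZ), Fkbp5, Sgk1 and Per1, and Hsd11b1 lets hepatocytes regenerate active hormone from its inert keto form. Metallothioneins are small cysteine-rich proteins that bind zinc and copper. Their genes are switched on by zinc through the factor MTF1 at metal response elements (MREs), and also by glucocorticoids and by the cytokines of the acute phase response, so they stand where metal, hormone and inflammation meet in the liver.

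The promoters of both metallothionein genes and 1 of Sgk1 are shown because these 3 of the 7 genes had the largest differences between tylosin and control. The Sgk1 window was picked from 6 because it held a full glucocorticoid response element, so the rarity of that motif is no test. They are RefSeq windows on GRCm38.p6 from 250 bases before to 50 bases after a transcript start, and the capitals mark MRE cores (TGCACNC or TGCGCNC, either strand) in Mt1 and Mt2 and the full palindromic GRE (AGAACA and its reverse complement TGTTCT, 3 bases apart) in Sgk1.
Mt1, chr8:94178839-94179138, plus strand: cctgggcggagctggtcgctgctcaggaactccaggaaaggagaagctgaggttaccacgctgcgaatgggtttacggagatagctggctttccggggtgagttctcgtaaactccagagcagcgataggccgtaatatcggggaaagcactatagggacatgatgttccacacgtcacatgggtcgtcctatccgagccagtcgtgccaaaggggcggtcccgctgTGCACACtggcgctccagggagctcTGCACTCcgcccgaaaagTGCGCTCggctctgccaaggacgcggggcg
Mt2, chr8:94172368-94172667, plus strand: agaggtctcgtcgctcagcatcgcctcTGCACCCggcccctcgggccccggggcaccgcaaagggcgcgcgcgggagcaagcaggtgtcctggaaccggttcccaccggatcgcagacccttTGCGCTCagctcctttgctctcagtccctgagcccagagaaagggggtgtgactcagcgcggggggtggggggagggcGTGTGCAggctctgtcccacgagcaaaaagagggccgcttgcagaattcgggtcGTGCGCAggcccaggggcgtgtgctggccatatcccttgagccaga
Sgk1, chr10:21993640-21993939, plus strand: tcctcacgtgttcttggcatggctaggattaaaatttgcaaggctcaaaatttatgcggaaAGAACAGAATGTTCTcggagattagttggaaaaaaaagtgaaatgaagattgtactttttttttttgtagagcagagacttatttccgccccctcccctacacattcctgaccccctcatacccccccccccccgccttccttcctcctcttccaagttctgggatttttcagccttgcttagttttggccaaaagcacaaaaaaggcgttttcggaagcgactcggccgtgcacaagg
The Mt1 window held 3 MRE cores, as did 1.97% of 32851 such windows (at least 3), and that of Mt2 held 4, as did 0.517% (at least 4). From the transcript start used, the Mt1 cores began at -23, 3 and 21, and those of Mt2 at -223, -128, -50 and 5. The Mt1 gene record begins at 94178883, upstream of the transcript start used here. The full GRE stood in 3 of the 32851 windows (0.00913%), and the Sgk1 window, 1 of 6 for that gene, was among them, with the motif starting at -189 from the transcript start. Windows were found for 6 of the 7 genes, all but Nr3c1, and no other window of these 6 genes held the full GRE. A match of letters says nothing about binding in these livers.

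With tylosin, Mt2 was called higher, 1.85-fold above control, and so was Sgk1, a kinase that promotes ion transport and cell survival, at 1.51-fold. A call was an unadjusted P under 0.01 with an absolute log2 fold change over 0.5, the thresholds of the study's methods. That made 2 of the 7 genes called with tylosin, where 1.45% of all genes were called, 0 of 7 with amoxicillin (1.28%) and 0 of 7 between the antibiotics (0.11%). After Benjamini-Hochberg adjustment over all probe sets limma called none of the 7 in any comparison. The smallest adjusted p among them was 0.208 with tylosin, 0.234 with amoxicillin and 1 between the antibiotics. At an unadjusted p under 0.05 there were 3 of the 7 with tylosin (16.6% of all genes), 1 with amoxicillin (15.5%) and 1 between the antibiotics (3.13%), and at an adjusted p under 0.05 there was no gene of the 18193 in any comparison (0%). Both antibiotics were compared with the same 3 control arrays, so their comparisons are not independent.

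**Figure D1:**
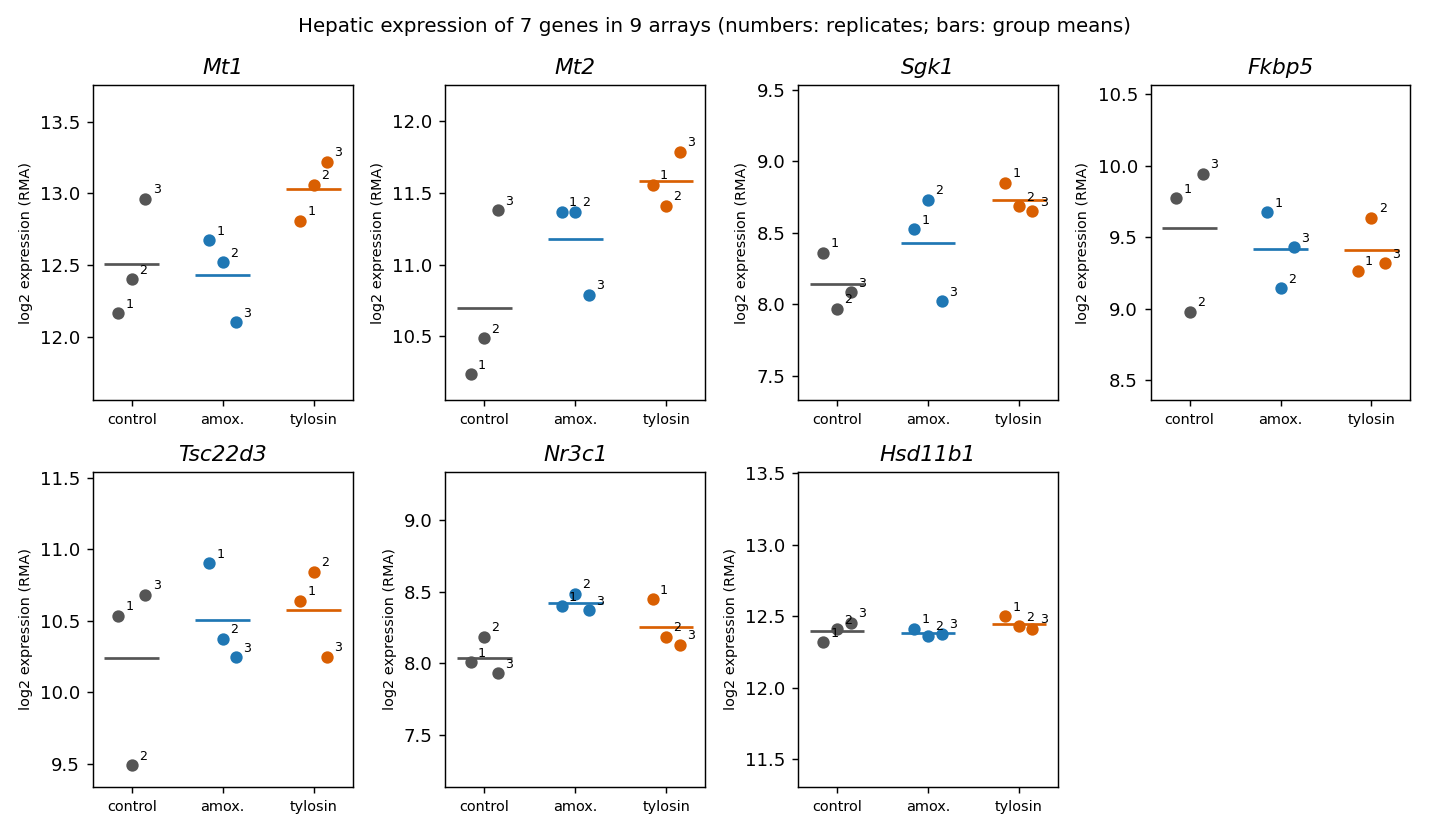
Log2 expression of the 7 genes in the 9 arrays, grouped by treatment, with replicate numbers beside the points and bars at the group means; each panel spans the same range of log2 units. The 3 tylosin arrays lie above all 3 control arrays for Mt2 and Sgk1, and the 3 amoxicillin arrays do so for Nr3c1.

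The control arrays of Mt2, which lies beside Mt1 on chromosome 8, were at 10.23, 10.48 and 11.38 in replicates 1 to 3. The amoxicillin arrays were at 11.37, 11.37 and 10.79, and the tylosin arrays at 11.56, 11.41 and 11.79. All tylosin arrays lay above all control and all amoxicillin arrays, while control replicate 3 stood at the level of the amoxicillin arrays. The group means were 10.70 ± 0.60, 11.18 ± 0.33 and 11.59 ± 0.19 (SD, n = 3 each). The log2 fold change of Mt2 with tylosin was 0.89 (standard error, SE, 0.27, limma adjusted p = 0.215). With amoxicillin it was 0.48 (95% interval -0.11 to 1.06) and between tylosin and amoxicillin 0.41 (-0.18 to 0.996), so that the interval of neither step in the order control, amoxicillin, tylosin left out 0.

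Mt1 is measured by a probe set whose name marks probes shared by more than 1 transcript, so it may also report related transcripts. It read 12.16, 12.40 and 12.96 in the control arrays, 12.67, 12.52 and 12.10 with amoxicillin and 12.81, 13.06 and 13.22 with tylosin. Here the tylosin arrays lay above every amoxicillin array, and control replicate 3 lay within the tylosin range. The means were 12.51 ± 0.41, 12.43 ± 0.30 and 13.03 ± 0.21 (SD, n = 3 each). The log2 fold change of Mt1 with tylosin was 0.52 (SE 0.21, unadjusted p = 0.0307, limma adjusted p = 0.294), which missed the P threshold. With amoxicillin it was -0.08 (95% interval -0.54 to 0.38), and tylosin against amoxicillin gave 0.60 (SE 0.21, unadjusted p = 0.0157, limma adjusted p = 1). The dimmer probe set of Mt1, over a log2 value of 6 in 2 of 9 arrays, gave 0.52 with tylosin and -0.53 with amoxicillin.

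Both Mt1 and Mt2 were among the genes whose tylosin and amoxicillin arrays did not overlap, 6.13% of all genes. Single arrays changed the calls of both. Without control replicate 3, the log2 fold change of Mt2 was 1.23 with tylosin and 0.82 with amoxicillin, both called, and that of Mt1 with tylosin was 0.75 and called. Tylosin against amoxicillin was then also called for Mt1, at 0.60. Without control replicate 1, control replicate 2, or any 1 of the tylosin arrays, Mt2 lost the tylosin call, at 0.65 to 0.97. In each of these settings the direction of Mt2 was the same.

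Several acute phase genes were highest in control replicate 3 and tylosin replicate 3. Saa1, a serum amyloid A of the liver, was 11.55 in control replicate 3 and 11.01 in tylosin replicate 3, against 7.77 to 9.06 in the other 7 arrays. Lcn2, the siderophore-binding lipocalin of the acute phase, was 9.20 and 8.64 in the same arrays, against 6.24 to 7.75. Control replicate 3 held the highest value of 9 of 22 acute phase genes (40.9%, where it held the highest of 15.7% of all genes) and tylosin replicate 3 of 7 (31.8%, against 12.9%). With both arrays left out, which was decided once the data had been seen, the log2 fold change of Mt2 with tylosin was 1.12 and called, and that of Mt1 was 0.65 and called, while Sgk1 was at 0.60 and not called. No acute phase gene was called in any comparison with all 9 arrays, and 1 was called higher with tylosin without control replicate 3. Their median log2 fold change was 0.01 with tylosin and -0.02 with amoxicillin, where the medians over all genes were -0.01 and -0.03.

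**Figure D2:**
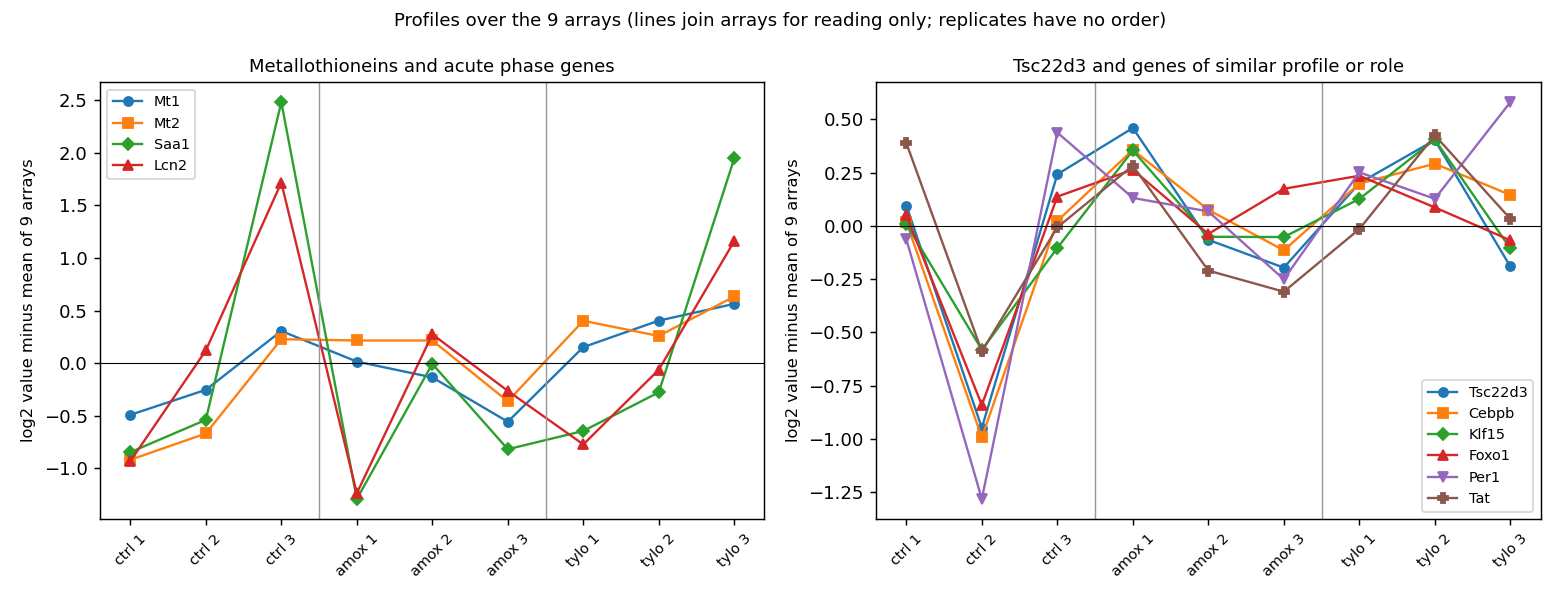
Log2 value minus the mean of the 9 arrays for Mt1, Mt2, Saa1 and Lcn2 (left) and for Tsc22d3, Cebpb, Klf15, Foxo1, Per1 and Tat (right), by array; lines join arrays for reading only. Saa1 and Lcn2 peak in control replicate 3 and tylosin replicate 3, and all 6 genes on the right are lowest in control replicate 2. Cebpb, Klf15 and Foxo1 were chosen for their likeness to Tsc22d3, which favours a shared low in that array.

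Sgk1 was at 8.36, 7.97 and 8.09 in the control arrays, 8.53, 8.73 and 8.02 with amoxicillin and 8.85, 8.69 and 8.65 with tylosin. The tylosin arrays kept within a narrow span above all control arrays, and the amoxicillin arrays reached from the control range into the tylosin range. The means were 8.14 ± 0.20, 8.43 ± 0.36 and 8.73 ± 0.11 (SD, n = 3 each). The log2 fold change of Sgk1 with tylosin was 0.59 (SE 0.17, limma adjusted p = 0.208), with amoxicillin 0.29 (95% interval -0.09 to 0.66) and between tylosin and amoxicillin 0.30 (-0.07 to 0.68). The call with tylosin did not hold when any of these arrays was left out: the second control (0.51), the third control (0.56), the first tylosin (0.53) or the second tylosin array (0.61). Of its paralogs, Sgk3 was at 0.34 with tylosin, under the fold threshold, and Sgk2 was not called. The tylosin and control groups of Sgk3 did not overlap, as for 17.4% of all genes.

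**Figure D3:**
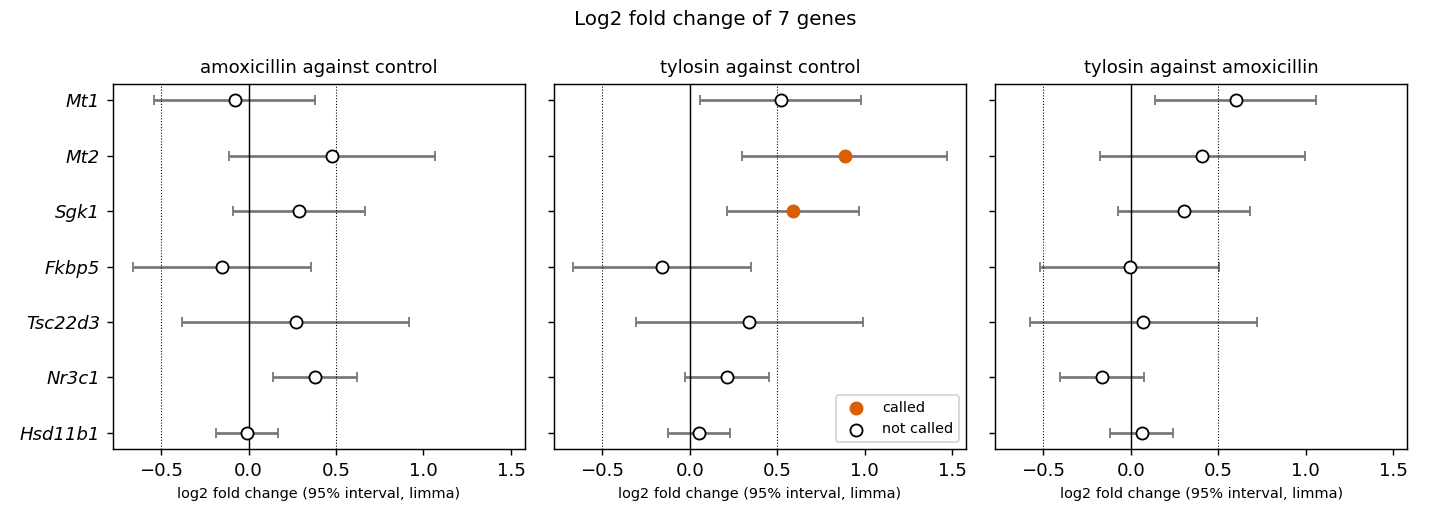
Log2 fold change of each gene in the 3 comparisons, with 95% intervals from limma; filled points were called, dotted lines mark 0.5 in either direction. With tylosin, Mt2 and Sgk1 are the called genes, and the interval of Hsd11b1 is the narrowest in each panel.

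Tsc22d3, the leucine zipper protein GILZ that is among the most direct readouts of the receptor, was 10.54, 9.49 and 10.68 in the control arrays. It was 10.90, 10.38 and 10.24 with amoxicillin and 10.64, 10.84 and 10.25 with tylosin. All 3 groups overlapped, and control replicate 2 lay far under the other 8 arrays. The means were 10.24 ± 0.65, 10.51 ± 0.35 and 10.58 ± 0.30 (SD, n = 3 each). Tsc22d3 differed from control by 0.27 with amoxicillin (95% interval -0.38 to 0.92) and by 0.34 with tylosin (-0.31 to 0.99) on the log2 scale, but without control replicate 2 by -0.10 and -0.03. The next brightest of its 4 probe sets followed the same arrays, from 7.64 in control replicate 2 to 9.44 in tylosin replicate 2, with log2 fold changes of 0.41 and 0.55, neither called.

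Fkbp5, the cochaperone that lowers the hormone affinity of the receptor and is itself induced by it, was 9.77, 8.98 and 9.94 in the control arrays, 9.67, 9.14 and 9.43 with amoxicillin and 9.26, 9.64 and 9.32 with tylosin. The control arrays held both the lowest and the highest value of the 9. The means were 9.57 ± 0.51, 9.42 ± 0.27 and 9.41 ± 0.20 (SD, n = 3 each). For Fkbp5 the log2 fold change came to -0.15 with amoxicillin (95% interval -0.66 to 0.36) and -0.16 with tylosin (-0.67 to 0.35), opposite in sign to Sgk1 and Tsc22d3, and without control replicate 2 these became -0.44 and -0.45, while without control replicate 3 they were 0.038 and 0.030. A dimmer probe set of Fkbp5, over 6 in all arrays, stood at -0.48 with amoxicillin and -0.45 with tylosin (unadjusted p = 0.0201 and 0.0261, limma adjusted p = 0.280 and 0.281), not called.

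Nr3c1, the receptor itself, was 8.01, 8.19 and 7.93 in the control arrays, 8.40, 8.49 and 8.37 with amoxicillin and 8.45, 8.19 and 8.13 with tylosin. The amoxicillin arrays lay together above all control arrays, and the tylosin arrays reached into both ranges. The means were 8.04 ± 0.13, 8.42 ± 0.06 and 8.25 ± 0.17 (SD, n = 3 each). The log2 fold change of Nr3c1 with amoxicillin was 0.38 (SE 0.11, unadjusted p = 0.00559, limma adjusted p = 0.234), past the P threshold and under the fold threshold, so it was not called. With tylosin it was 0.21 (95% interval -0.03 to 0.45), and tylosin against amoxicillin gave -0.16 (-0.40 to 0.08), so neighbours in the order control, tylosin, amoxicillin were not told apart. Nr3c1 was the 1 gene of the 7 whose amoxicillin and control arrays did not overlap, and 21% of all genes had such groups, against 17.4% for tylosin and control, where Mt2 and Sgk1 did not overlap.

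Of the 6 probe sets of Nr3c1, 3 were over 6 in all 9 arrays, and with amoxicillin these were all above 0, at 0.38, 0.09 and 0.47. The other 3 were under 6 in all arrays, close to the background. With amoxicillin they went both ways, at 0.26, 0.83 and -0.37, not called. The second brightest, at 8.11 ± 0.23 in control mice (SD, n = 3), gave 0.09 with amoxicillin and 0.01 with tylosin. The third gave 0.47 with amoxicillin (unadjusted p = 0.00652, limma adjusted p = 0.240), with groups that did not overlap, and 0.04 with tylosin. The mineralocorticoid receptor gene Nr3c2, whose product also binds corticosterone, was called higher with both antibiotics, from 4.97 ± 0.27 in control livers to 5.61 ± 0.21 (amoxicillin) and 5.58 ± 0.19 (tylosin; SD, n = 3 each). These were log2 differences of 0.63 and 0.61 (SE 0.16 each, limma adjusted p = 0.206 and 0.190), at levels under 6 in every array. Without control replicate 3 both calls were lost (0.48 and 0.45). The call with amoxicillin was also lost without amoxicillin replicate 1 (0.53), and that with tylosin without tylosin replicate 1 (0.54) or tylosin replicate 2 (0.57).

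Hsd11b1, the reductase of the endoplasmic reticulum that regenerates active glucocorticoid, was the steadiest of the 7. It was 12.32, 12.41 and 12.45 in the control arrays, 12.41, 12.37 and 12.38 with amoxicillin and 12.50, 12.43 and 12.41 with tylosin. The groups overlapped, and all 9 arrays lay within 0.18 on the log2 scale. Hsd11b1 differed from control by -0.01 with amoxicillin (95% interval -0.19 to 0.17) and by 0.05 with tylosin (-0.13 to 0.23), intervals that leave out changes of 0.5 in either direction. Of the 9 genes of glucocorticoid metabolism and transport, 7 were measured and 0 were called in any comparison. Among them, H6pd, which supplies the cofactor of Hsd11b1, was at -0.18 with tylosin, and Serpina6, the corticosteroid-binding globulin, at -0.20 with amoxicillin and 0.10 with tylosin.

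**Figure D4:**
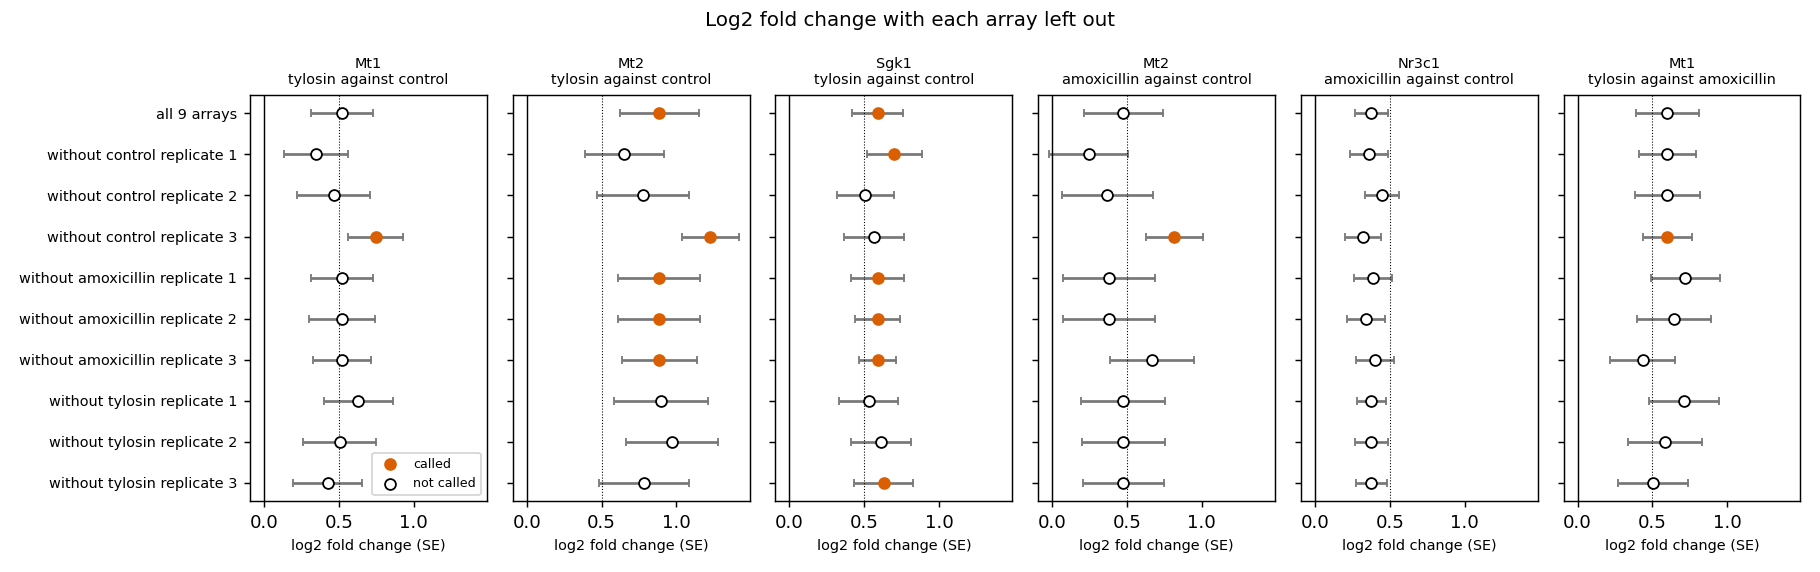
Log2 fold change and standard error of Mt1, Mt2, Sgk1 and Nr3c1 in 6 comparisons with all 9 arrays and with each array left out in turn; filled points were called. Mt2 with tylosin moves from 0.65 to 1.23 and stays above 0, and Nr3c1 with amoxicillin stays between 0.32 and 0.45, under the dotted line at 0.5.

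Other genes that glucocorticoids raise in liver were taken from a list of 25, also chosen with earlier results known, of which 24 were measured. Of these, 2 were called with tylosin, both higher, where 1.45% of all genes were called, and 0 with amoxicillin (1.28%). In tylosin against amoxicillin 1 was called, also higher (0.11% of all genes). Dusp1, a phosphatase that shuts off MAP kinases, was 8.82, 8.57 and 9.02 in the control arrays, 9.20, 8.51 and 8.75 with amoxicillin and 9.38, 9.77 and 9.29 with tylosin. All tylosin arrays of Dusp1 lay above all other arrays, by 0.68 over the control and 0.66 over the amoxicillin mean (SE 0.19 each, limma adjusted p = 0.202 and 1). Nfkbia, the inhibitor of NF-kappa B, was called higher with tylosin at 11.19 ± 0.20 over 10.65 ± 0.21 in control livers (SD, n = 3 each), a difference of 0.55 (SE 0.14, limma adjusted p = 0.190). Leaving out the first control (0.69), the second control (0.56) or the second tylosin array (0.54) ended the call of Dusp1 against control, and leaving out amoxicillin replicate 2 or 3 or tylosin replicate 1 or 2 (0.51 to 0.71) ended that against amoxicillin. The call of Nfkbia ended without the second control (0.43) or the second tylosin array (0.44), and with the mean of its probe sets (0.28).

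The list as a whole spread to both sides. With tylosin 17 of the 24 were above 0 and 7 below, with a median log2 fold change of 0.10, and with amoxicillin the counts were the same and the median was 0.11, where 46.7% and 44.6% of all genes were above 0. Without control replicate 2 this lean was gone: 12 of the 24 were above 0 with tylosin (median -0.02) and 11 with amoxicillin (median -0.05), and 0 were called with either. Without control replicate 3, 3 were called higher and 1 lower with tylosin, and 1 lower with amoxicillin. Between tylosin and amoxicillin 14 of the 24 were above 0, where 53.4% of all genes were. Ddit4, a stress-induced inhibitor of mTORC1, was at 0.83 with tylosin and 0.58 with amoxicillin. Irs2, the insulin receptor substrate, was at -0.77 with tylosin and Pdk4, the pyruvate dehydrogenase kinase of fasting, at -0.81 with amoxicillin, none of them called. Among the enzymes of glucose output and amino acid metabolism in the list, Pck1, Tat and Tdo2 lay between -0.03 and 0.22 with either antibiotic. With tylosin G6pc was at -0.31 and Got1 at 0.37, and with amoxicillin they were at -0.02 and 0.18, none called.

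**Figure D5:**
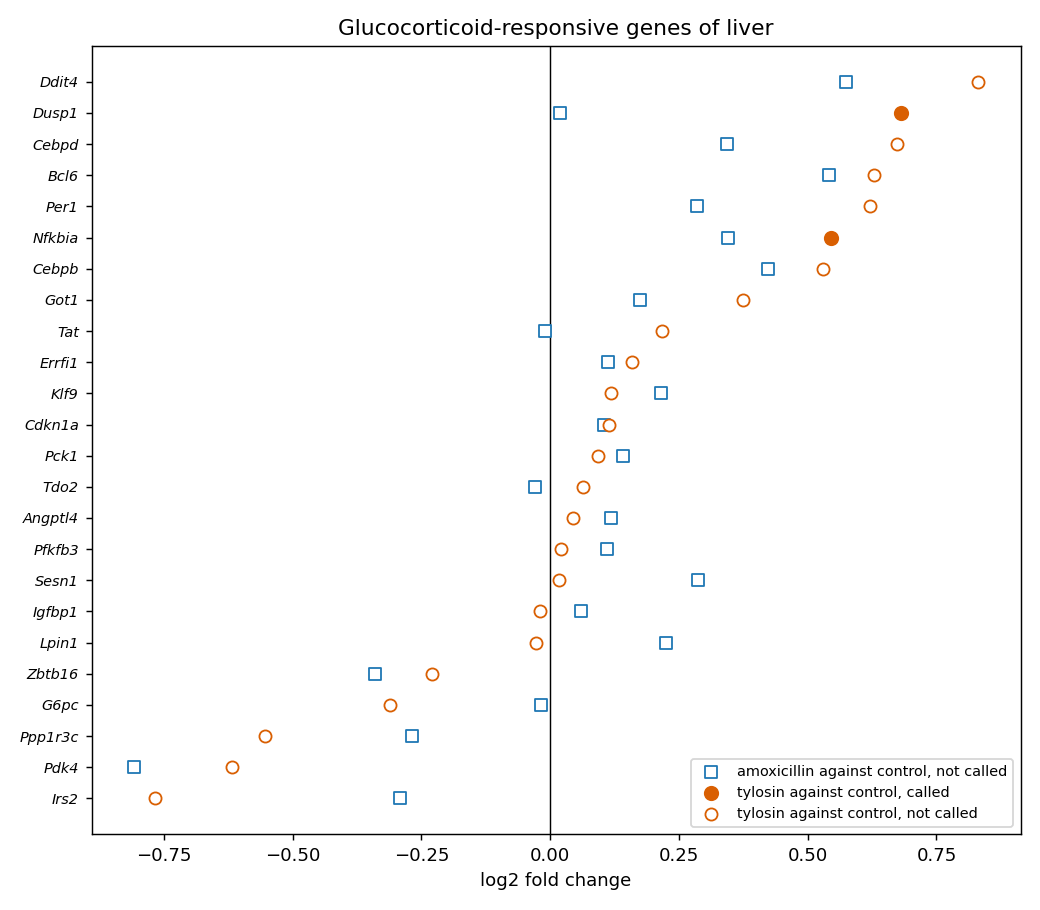
Log2 fold change of the 24 measured glucocorticoid-responsive genes with amoxicillin (squares) and tylosin (circles) against control, ordered by the value with tylosin; filled symbols were called. Dusp1 and Nfkbia are the called genes, both with tylosin, and Irs2 and Pdk4 lie farthest to the left.

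Control replicate 2 stood apart in this set. It held the lowest value of the 9 arrays for 13 of the 24 glucocorticoid-responsive genes (54.2%) and for 3 of the 7 genes described here (Sgk1, Fkbp5 and Tsc22d3), where it held the lowest of 10.2% of all genes. Per1, a clock gene that glucocorticoids raise, was 5.85 there and 6.88 to 7.71 in the other arrays. Cebpb, a factor of gluconeogenic and acute phase genes, was 10.10 there and 10.98 to 11.45 in the others. The hour of collection and the serum corticosterone of each animal are not given in the labels, and their part in these values was not tested.

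The genes closest to each metallothionein and to Tsc22d3 in profile were sought among 7523 genes with a mean over 6, by the mean absolute difference after each was centred on its own mean over the 9 arrays. This was done for the 3 of the 7 genes that spanned over 1 on the log2 scale. Rcan1, an inhibitor of calcineurin, was nearest Mt1 (0.15), followed by Ccl5, a chemokine (0.15), and Lgmn, a lysosomal protease (0.17). Jdp2, a factor that binds AP-1 sites, was nearest Mt2 (0.15), then Rasgef1b (0.19) and Rcan1 (0.22). For Tsc22d3 they were Cebpb (0.12), Klf15, a glucocorticoid-responsive factor of amino acid breakdown (0.14), and Foxo1, the fasting factor that insulin restrains (0.15). All 3 were lowest in control replicate 2, where Tsc22d3 was also lowest, which the choice by profile favours.

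The cytosolic chaperones that hold the receptor ready were not called in any comparison of the 9 arrays as fitted here, though other settings called some of them. Of 15 listed, 12 were measured, and 10 were below 0 with either antibiotic. Their median was -0.37 (amoxicillin) and -0.20 (tylosin) on the log2 scale. Of all genes, 44.6% were above 0 with amoxicillin and 46.7% with tylosin. With amoxicillin 9 of the 12 had groups that did not overlap, as did 21% of all genes. With tylosin 3 of the 12 had such groups, against 17.4% of all genes. Control replicate 3, which stood apart for the acute phase genes, held the highest value of 7 of the 12 (58.3%). Without it 10 of the 12 were still below 0 with either antibiotic, at medians of -0.32 (amoxicillin) and -0.17 (tylosin). Dnajb1, a cochaperone of HSP70, was at -0.54 with amoxicillin, with groups that did not overlap. It was called with trended and robust variance, array weights, only the 2 groups compared, the average of its probe sets, and without amoxicillin replicate 1, tylosin replicate 1 or tylosin replicate 3 (-0.64 to -0.54). Hsp90aa1, the inducible HSP90, was at -0.48 with amoxicillin (unadjusted p = 0.00619, limma adjusted p = 0.238). Stip1, which passes the receptor from HSP70 to HSP90, was at -0.45 with tylosin, and was called with quantile normalization and without control replicate 1 or tylosin replicate 3 (-0.57 to -0.53). Fkbp4, which competes with Fkbp5 for HSP90, was at -0.50 with amoxicillin and -0.60 with tylosin. With tylosin Fkbp4 was called with quantile normalization, trended and robust variance, array weights, the replicate block, and without control replicate 1 or tylosin replicate 3 (-0.81 to -0.60), and with amoxicillin without control replicate 1 (-0.70). Among 11 measured of 13 coregulators, Ppargc1a, the coactivator of fasting metabolism, was at 0.84 and 0.90 and Crebbp, a histone acetyltransferase, at 0.59 and 0.52, none called. Ppargc1a was called under the replicate block with both antibiotics (unadjusted p = 0.00634 and 0.00431 from limma) and without control replicate 1 with both (1.09 and 1.15). It was also called without tylosin replicate 3 with both (0.84 and 1.23), without tylosin replicate 1 or with only the 2 groups compared for amoxicillin, and with array weights for tylosin. Crebbp was called with both without control replicate 2 (0.82 and 0.75).

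Genes that handle zinc, the metal that metallothioneins buffer, did not pass the threshold. Of 20 listed and measured, 0 were called in any comparison, and their median log2 fold change was 0.07 with amoxicillin and 0.09 with tylosin. Slc39a1, a zinc importer, was at -0.41 with amoxicillin, and Slc30a7, a zinc transporter of the Golgi, at 0.24 with tylosin. Mtf1, the zinc-sensing factor, was 6.66 to 6.75 in the control, 6.45 to 6.49 in the amoxicillin and 6.47 to 6.71 in the tylosin arrays. Its amoxicillin arrays thus lay under all control arrays, and 21% of all genes had amoxicillin and control groups that did not overlap. Mt3 and Mt4, the metallothioneins of brain and of squamous epithelium, stayed under 5 in all arrays. Of 14 measured genes of copper and iron, 1 was called with tylosin, where 1.45% of all genes were called. This was Tfrc, the transferrin receptor, called higher at 6.78 ± 0.26 over 6.09 ± 0.21 (SD, n = 3 each). The difference was 0.68 (SE 0.18, limma adjusted p = 0.190). That call ended without control replicate 1 or 3 or tylosin replicate 1 or 2 (0.56 to 0.67), and with the mean of its probe sets (0.19).

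Oxidative stress also raises metallothioneins. Of 11 measured genes of that response, 1 was called with each antibiotic, where 1.28% (amoxicillin) and 1.45% (tylosin) of all genes were called. This was Nqo1, a quinone reductase, at 5.87 ± 0.22 (amoxicillin) and 5.95 ± 0.10 (tylosin) over 5.21 ± 0.16 in control livers (SD, n = 3 each). The differences were 0.66 and 0.74 (SE 0.13 each, limma adjusted p = 0.186 and 0.180). Leaving out any single array ended neither call, and the mean of Nqo1 over the arrays was under 6. Hmox1, heme oxygenase, was 8.50 in tylosin replicate 3 and 6.31 to 6.87 in the other 8 arrays.

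The summed level of 7 hepatocyte markers was 17.08 to 17.11 on the log2 scale in all 9 arrays. Alb among them held the highest value of every array (14.64 to 14.71), so this sum can say little about hepatocyte content. In tissue of mixed cells, fewer cells of a type and less RNA per cell cannot be told apart. The summed smooth muscle markers were 9.34 in amoxicillin replicate 1 and 9.54 in tylosin replicate 2 and 7.61 to 7.93 elsewhere. The summed markers of intestinal mucosa were 11.23 to 11.54 in the control, 11.28 to 12.03 in the amoxicillin and 11.25 to 11.94 in the tylosin arrays, a sum dominated by Fabp2, which was 10.90 to 11.62 throughout. Reg3b, a secreted lectin of gut defence, read 10.18 in amoxicillin replicate 1, 9.72 in tylosin replicate 2 and 7.75 in tylosin replicate 1, against 2.67 to 3.15 in the other 6 arrays. Zg16, Tff3, Muc2, Reg3g, Vil1, Phgr1 and Krt20 were also highest in amoxicillin replicate 1 and tylosin replicate 2. Fabp2, Lgals4, Cdx1 and Cdx2 did not share this order, and 6 of the 12 markers passed 6 in any array. The median log2 fold change of the 12 markers was 0.50 with amoxicillin and 0.55 with tylosin, none called. With amoxicillin replicate 1 and tylosin replicate 2 left out, the log2 fold change with tylosin was 0.97 for Mt2 and 0.61 for Sgk1, neither called, and with amoxicillin that of Nr3c1 was 0.39. Markers of Kupffer cells and of leukocytes, of which 6 of 6 and 2 of 6 passed 6 in any array, summed highest in tylosin replicate 3, at 12.92 and 9.31, against 11.69 to 12.33 and 8.002 to 8.58 in the others. The Kupffer list was split there: Cd5l, Marco, Timd4 and Adgre1 had their highest values in that array, while Clec4f (7.50, against 9.20 to 9.66 in the others) and Vsig4 (9.40, against 9.99 to 10.52) had their lowest. The leukocyte list was split as well, and its sum in that array was dominated by Ptprc. Ptprc (8.83, against 6.73 to 8.01 in the others), S100a8 and S100a9 were highest in that array, while Cd3e, Cd79a and Cd8a were not. Without that array Mt2 with tylosin was at 0.78 and not called. All 5 adrenal markers were under 6 in every array. Actb read higher at its 3-prime than at its 5-prime control probe set, a gap that grows as RNA degrades, by 1.29 to 1.40 in the control, 1.39 to 1.57 in the amoxicillin and 1.21 to 1.73 in the tylosin arrays. With it as a covariate the same 2 genes, Mt2 and Sgk1, were called with tylosin.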

How the data were processed

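RNA of 9 livers was measured on Affymetrix whole-genome mouse expression arrays. The values deposited by the authors are log2 expression after RMA, run with the affy package, with no version given in the sources used. RMA fits all arrays jointly and brings their probe intensities to a common distribution. The deposited values still differed between arrays, with medians from 3.96 to 4.06. Their SD was 2.26 to 2.27 in the control arrays and 2.29 to 2.35 in the antibiotic arrays. The 64 control probe sets of the manufacturer were left out, which left 45037. By the array annotation 34958 probe sets carried 1 symbol, 932 several and 9211 none, and those with several or none entered the fit but no list. The number of arrays limits the precision, and no pair of arrays was identical.

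One linear model with 3 groups was fitted to all 9 arrays (limma 3.58.1, R 4.3.3), with Benjamini-Hochberg adjustment over all 45037 probe sets. The procedure was tested on simulated data with independent noise in each array. Those data held no litters and no outlying arrays, so that test cannot speak to either. The 9 pathway lists and 10 marker lists held 205 genes, of which 190 were measured, G6pc1 as G6pc. The members and lists were chosen with earlier results of these data known. Genes named from the lists were those called and, with a mean over 6, the 2 largest changes of each list and comparison, in part given as counts. Other genes (Saa1 with tylosin, Lcn2, Per1, Tat, Pck1, Tdo2, G6pc, Got1, Mtf1, Mt3, Mt4, Sgk2, Hsp90aa1 and cell type markers) were named after their values were seen. The alternatives were other thresholds, a filter on dim probe sets (over 6 in at least 3 arrays), 2 normalizations, other variance models, the mean of all probe sets of a gene, an RNA quality covariate, a replicate block and arrays left out. Figures were drawn with matplotlib 3.10.9.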

Additional observations from a re-analysis of the deposited data

How the results depend on the processing

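With tylosin, 2 of the 7 genes were called. The count became 0 at an adjusted p under 0.05, at an absolute log2 fold change over 1, with array weights and without amoxicillin replicate 1 and tylosin replicate 2 together. It became 1 with the filter on dim probe sets, trended and robust variance, or only the 2 groups compared (Sgk1 each time), and 1 with quantile normalization (Mt2). With each array left out in turn it ranged from 0 to 2. With amoxicillin the count of 0 ranged from 0 to 1 with each array left out, and was 1 (Mt2) without control replicate 3 and tylosin replicate 3 together. Between tylosin and amoxicillin it was 0, and 1 (Mt1) with array weights or only the 2 groups compared, with 0 to 1 over arrays left out. The causes were not tested, beyond the fewer samples of some settings.

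Replicate numbers carry no stated pairing: 2 of 9 same-numbered pairs had a residual correlation over 0.1, and 3 of 9 arrays correlated best with their own number. With the replicate block 1 of the 7 genes was called with tylosin (Sgk1), and Mt2 was at 0.89 (unadjusted p = 0.0114 from limma). The block moved the probe sets called between tylosin and amoxicillin from 42 to 69.

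The sign of small differences changed. With amoxicillin, over arrays left out, Mt1 ranged from -0.25 to 0.15, Fkbp5 from -0.44 to 0.038, Tsc22d3 from -0.10 to 0.49, Hsd11b1 from -0.047 to 0.022, Cat from -0.025 to 0.10, Osgin1 from -0.78 to 0.031, Saa2 from -1.63 to 0.017 and Serpina6 from -0.48 to 0.073. Without control replicate 3 and tylosin replicate 3 together, Mt1 was at 0.15, Fkbp5 at 0.038, Hsd11b1 at 0.022 and Saa2 at 0.017. Hsd11b1 was at 0.045 with median centring, and Akr1d1 at -0.11 with the RNA quality covariate. With tylosin, over arrays left out, Fkbp5 ranged from -0.45 to 0.030, Tsc22d3 from -0.031 to 0.56, Saa3 from -0.10 to 1.32 and Serpina6 from -0.10 to 0.26, and Fkbp5 was at 0.074 without control replicate 3 and tylosin replicate 3 together. Between tylosin and amoxicillin, over arrays left out, Fkbp5 ranged from -0.14 to 0.12, Tsc22d3 from -0.061 to 0.27 and Nrip1 from -0.23 to 0.0054. Fkbp5 was also at 0.0010 with quantile normalization, 0.063 with array weights, 0.016 with the covariate, 0.0067 without amoxicillin replicate 1 and tylosin replicate 2 together and 0.036 without control replicate 3 and tylosin replicate 3 together. In that last setting Nrip1 was at 0.0054. Tsc22d3 was at -0.020 when its probe sets were averaged.

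Several uncalled genes of the lists were called under other settings, in part as given in the report (Dnajb1, Fkbp4, Stip1, Ppargc1a, Crebbp, Irs2, Pdk4). Orm2 was called with tylosin without control replicate 3 (1.11), and Tfrc with amoxicillin without amoxicillin replicate 2 (0.59). Hmox1 was called without tylosin replicate 1, at 1.27 for tylosin against control and 1.29 against amoxicillin. Srxn1 was called in tylosin against amoxicillin without amoxicillin replicate 3 (0.53) or tylosin replicate 2 (0.58). Of the members' values under the alternatives, 408 kept direction and side of the threshold, 7 passed it newly, 23 no longer passed it and 24 changed sign. Over all 45037 probe sets, 608 (1.35%) were called with amoxicillin and 638 (1.42%) with tylosin. The filter on dim probe sets gave 216 and 256 of 12768 (1.69% and 2.01%). The mean of all probe sets of a gene gave 91 and 119 of 18193 genes (0.5% and 0.654%). Of the 45037 probe sets, the fold threshold of 1 gave 23 and 38, and the covariate 316 and 523. Without tylosin replicate 3 there were 1556 with tylosin. Levels under 6, as for Nr3c2 and Nqo1, lie close to the background of the array.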
